A study of Mus musculus with 46 samples.

Results

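The MCM replicative helicase subunits are the 6 genes of the deposited expression table whose symbol is Mcm followed by a single digit from 2 to 7, which makes 6 of the 7182 genes used. They were taken by name, with earlier results of these data known. The study asked what the loss of Rbbp5 does in mouse embryos around implantation. Rbbp5 is a core subunit of the COMPASS family, enzymes that place methyl groups on lysine 4 of histone H3. RNA was measured by SMART-seq2, a method for very small samples, in 33 libraries.

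Knockout (KO) embryos came from zygotes injected with Cas9 mRNA and a guide RNA to Rbbp5 when wild type, or with Cre mRNA when Rbbp5 flox/flox, but no source used here says which of these gave a given library. The same holds for whether wild-type (WT) zygotes were injected. Embryos were grown in KSOM medium to the blastocyst, or moved at the 2-cell stage into pseudo-pregnant females for later collection. The inner cell mass (ICM, the part of the blastocyst that forms the embryo proper) was freed by immunosurgery at embryonic day E3.5 and gave 7 KO and 7 WT libraries. The E5.5 epiblast was cut out by hand and gave 3 KO and 3 WT libraries. Each of these 20 libraries is 1 embryo. Single cells of E4.5 blastocysts gave 3 KO and 7 WT epiblast libraries and 2 KO and 1 WT primitive endoderm libraries, and the labels name no embryo for them. Because an ICM or epiblast was sequenced whole, fewer cells of a kind and less RNA per cell cannot be told apart.

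Mcm2 to Mcm7 encode proteins that join in a ring with 1 copy of each. In G1 the origin recognition complex, Cdc6 and Cdt1 load pairs of these rings on DNA, and in S phase Cdc45 and the GINS complex bind and turn them into the active helicase that unwinds DNA ahead of the polymerases. In cultured mammalian cells the 6 genes are known as targets of E2F transcription factors, which switch on S-phase genes. Fast-dividing cells, such as those of the early embryo, keep high levels of them.

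RefSeq annotates all 6 as protein-coding genes on GRCm38.p6, which the mm10 build of the study corresponds to. Mcm2 (ENSMUSG00000002870.8) lies at chr6:88883474-88898780 and Mcm3 (ENSMUSG00000041859.10) at chr1:20802966-20820312. Mcm4 (ENSMUSG00000022673.5) lies at chr16:15623897-15637400 and Mcm5 (ENSMUSG00000005410.6) at chr8:75109468-75128439. Mcm6 (ENSMUSG00000026355.11) lies at chr1:128331575-128359705 and Mcm7 (ENSMUSG00000029730.16) at chr5:138164583-138172111. The promoter windows below, from 250 bases before to 50 bases after a start site, are shown as a description of sequence. They come from RefSeq (GRCm38.p6), which gave 6 windows for 5 of the 6 genes, with 2 start sites for Mcm7. Each is written 5′ to 3′ on the strand of its gene, and capitals mark E2F-type letters, TTTCCCGC, TTTCGCGC, TTTGCCGC or TTTGGCGC on either strand. Mcm3 is at chr1:20820263-20820562 (minus strand), Mcm5 at chr8:75109259-75109558 (plus strand), Mcm6 at chr1:128359656-128359955 (minus strand) and the first Mcm7 window at chr5:138171834-138172133 (minus strand).
Mcm3: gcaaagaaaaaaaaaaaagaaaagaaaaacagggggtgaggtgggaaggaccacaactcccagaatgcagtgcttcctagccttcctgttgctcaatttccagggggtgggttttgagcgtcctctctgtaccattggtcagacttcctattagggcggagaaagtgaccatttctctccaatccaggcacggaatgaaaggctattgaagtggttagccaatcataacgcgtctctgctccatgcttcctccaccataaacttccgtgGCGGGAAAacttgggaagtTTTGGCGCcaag
Mcm5: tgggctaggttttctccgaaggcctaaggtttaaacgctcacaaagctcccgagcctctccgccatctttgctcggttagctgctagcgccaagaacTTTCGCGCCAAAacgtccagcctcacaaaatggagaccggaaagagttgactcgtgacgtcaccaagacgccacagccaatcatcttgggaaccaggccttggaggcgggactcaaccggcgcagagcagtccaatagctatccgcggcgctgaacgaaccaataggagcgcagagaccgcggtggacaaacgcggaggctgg
Mcm6: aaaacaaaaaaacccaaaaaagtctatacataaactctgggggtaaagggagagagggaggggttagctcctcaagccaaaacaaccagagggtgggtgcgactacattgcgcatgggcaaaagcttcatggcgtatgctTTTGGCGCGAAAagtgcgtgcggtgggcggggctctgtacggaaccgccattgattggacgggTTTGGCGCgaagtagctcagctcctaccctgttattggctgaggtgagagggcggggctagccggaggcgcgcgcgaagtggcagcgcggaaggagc
Mcm7: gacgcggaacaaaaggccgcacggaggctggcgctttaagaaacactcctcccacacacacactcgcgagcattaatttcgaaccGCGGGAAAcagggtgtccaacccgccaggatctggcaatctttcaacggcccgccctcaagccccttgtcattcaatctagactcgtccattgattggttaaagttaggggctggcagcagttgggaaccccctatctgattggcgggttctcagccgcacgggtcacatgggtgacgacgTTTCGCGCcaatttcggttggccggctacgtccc

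Mcm3 had 2 matches, both after its start site, and Mcm7 had 2 that were far apart. Mcm5 had 2 matches on opposite strands that overlap in one run, TTTCGCGCCAAA. Mcm6 had 3 matches, of which 2 overlap in the run TTTGGCGCGAAA. No match stood in the Mcm2 window or at the second Mcm7 start site. Of 32851 promoter windows of the same length, 744 (2.26%) held at least 1 match and 32 (0.0974%) held 2 or more, while 4 of the 6 helicase windows held 2 or more. The letters CCAAT, on either strand, stood in all 6 windows, and in 12289 (37.4%) of all windows. These matches describe letters and were not tested as binding sites or against the RNA levels.

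Values are FPKM, fragments scaled to transcript length and library size, so levels of different genes can be set side by side, and the depth behind them is unknown. KO ICM libraries had 3628 to 5136 genes at 1 FPKM or more and WT ICM libraries 5110 to 5718. At E5.5 the counts were 5457 to 5895 in KO and 5738 to 5805 in WT. KO ICM libraries 1, 4 and 6 had the fewest, from 3628 to 3883. Rbbp5 itself was not analysed here, so nothing here checks the genotype labels. No pair of libraries held identical values. Tests used limma, which fits a linear model per gene and borrows information on the spread across genes, on log2(FPKM + 1), so fold changes of low genes are understated. A gene was called when its p, adjusted by Benjamini-Hochberg over all genes tested, was under 0.05. All 6 members passed the filter of a mean of 1 FPKM over the libraries compared, in every comparison.

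**Figure D1:**
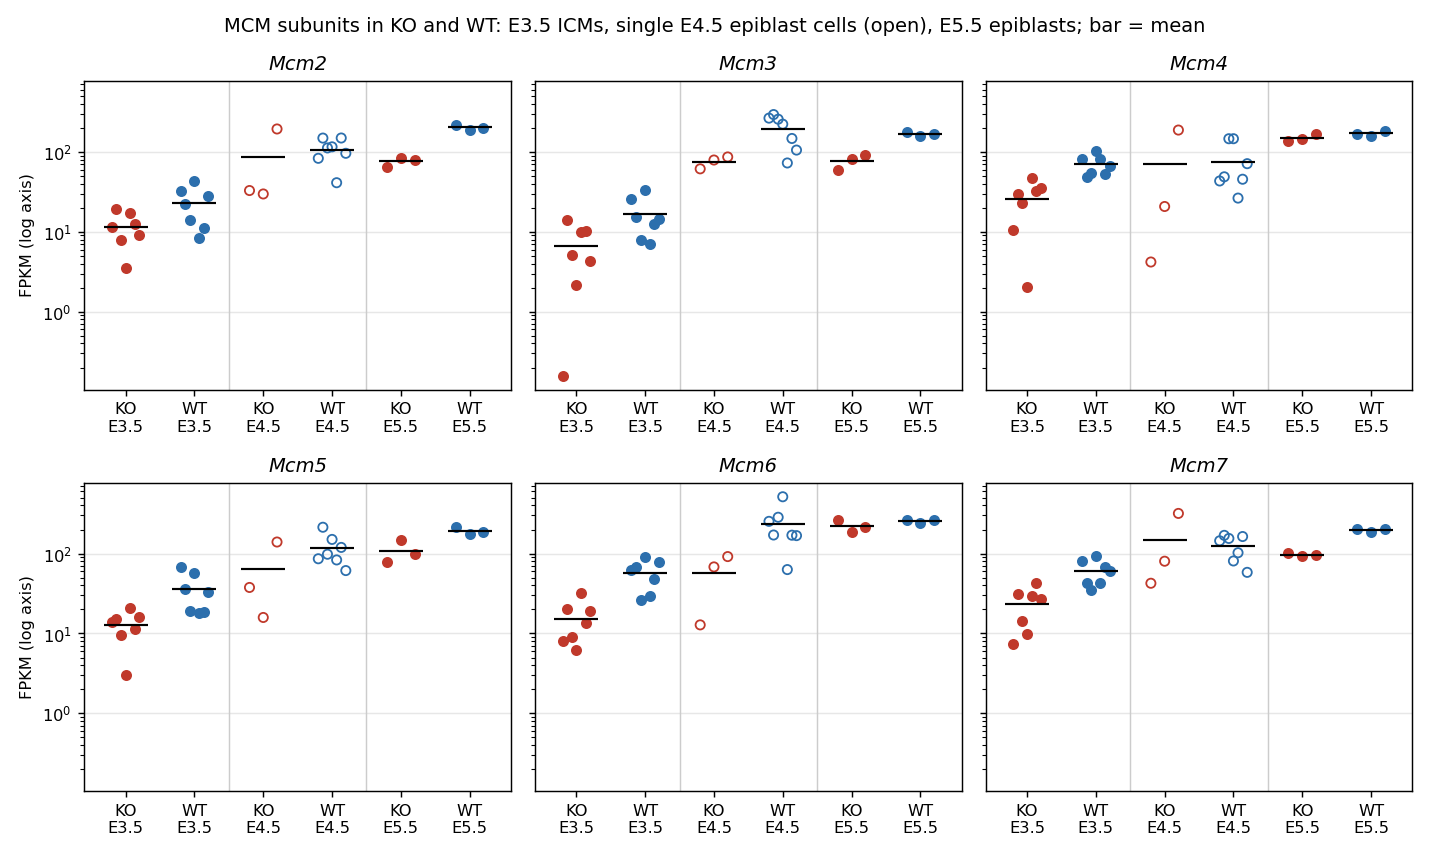
FPKM (log axis) of each of the 6 subunits in every KO (red) and WT (blue) library, by stage. Filled points are single embryos, open points are single E4.5 epiblast cells, and bars are means. KO ICM points lie mostly under the WT ICM points, and all 3 KO epiblasts at E5.5 lie below all 3 WT epiblasts for Mcm2, Mcm3, Mcm5 and Mcm7, while Mcm4 and Mcm6 overlap.

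In KO ICMs at E3.5, 5 of the 6 subunits, Mcm3 to Mcm7, were lower than in WT ICMs, where 28.3% of all 5443 genes tested were called, 24.9% lower and 3.44% higher. Mcm6 fell the most, by 1.89 on the log2 scale, and Mcm2 did not pass. Every KO library lay below the WT mean for each of the 6 subunits, but the share of all genes for which this held was not computed. The 6 changes had a median log2 of -1.45, against -0.65 over all genes tested, so much of the table was lower in these KO libraries.

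Mcm2, whose N-terminal tail also binds histones H3 and H4, had 3.52, 11.5 and 19.4 FPKM as lowest, median and highest value in KO ICMs. In WT ICMs these were 8.31, 22.5 and 42.9 FPKM, so the groups overlapped widely, with 2 KO libraries under all WT libraries. Its log2 change was -0.86 (SE 0.40, adjusted p = 0.109 in limma).

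Mcm5 forms with Mcm2 the gate through which DNA enters the ring, and Mcm3 is the neighbour of Mcm5. Mcm5 had 3.03, 13.9 and 20.8 FPKM as lowest, median and highest value in KO ICMs, against 17.97, 32.8 and 67.9 FPKM in WT ICMs. Only KO library 5 exceeded the lowest WT value. Mcm5 fell by 1.38 on the log2 scale (SE 0.40, adjusted p = 0.0187 in limma). Mcm3 had 0.158, 5.10 and 14.2 FPKM in KO ICMs, against 6.99, 14.4 and 33.7 FPKM in WT ICMs. It was the lowest subunit of all in most ICM libraries, and its groups overlapped, with 4 of 7 KO libraries under every WT library. Mcm3 fell by 1.42 on the log2 scale (SE 0.52, adjusted p = 0.0474 in limma), just inside the threshold, and lost its call when any of WT libraries 1, 2, 4, 6 and 7 or KO libraries 1, 3, 4 and 7 was left out (highest adjusted p 0.105).

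Mcm4, Mcm6 and Mcm7 form the core of the ring, which unwinds DNA by itself in purified form. Mcm4 had 2.06, 29.7 and 46.9 FPKM as lowest, median and highest value in KO ICMs, against 48.9, 66.5 and 102 FPKM in WT ICMs. It was the only subunit whose groups did not overlap, where 3.33% of all genes tested lay lower in every KO library and 1.29% higher. Mcm4 fell by 1.74 on the log2 scale (SE 0.47, adjusted p = 0.0133 in limma). Mcm6 had 6.21, 13.5 and 31.7 FPKM in KO ICMs, against 25.9, 61.9 and 91.6 FPKM in WT ICMs. KO library 5 alone exceeded the lowest WT value of Mcm6. Its mean of 15.4 ± 8.94 FPKM in KO ICMs was 3.75-fold below the WT mean of 57.6 ± 24.4 FPKM (SD, n = 7 each), and the adjusted p was 0.00326 in limma (SE 0.37). Mcm7 had 7.46, 26.8 and 42.4 FPKM in KO ICMs, against 35.3, 60.6 and 92.3 FPKM in WT ICMs. Mcm7 fell by 1.48 on the log2 scale (SE 0.37, adjusted p = 0.00879 in limma), and KO library 6 alone lay within the WT range.

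Ranked from the most lowered of the 5443 genes tested in the ICM, Mcm6 stood at the 4.61 percentile, Mcm4 at 7.15, Mcm7 at 12.6, Mcm3 at 14.8, Mcm5 at 16 and Mcm2 at 39. The general drop depends on scaling. Under quantile normalization the median change of all genes was 0.035 and that of the 6 subunits -0.89, and 3 of 6 subunits, Mcm4, Mcm6 and Mcm7, were called, among 357 genes called higher and 351 lower. Under median ratio scaling the medians were -0.26 and -0.96, with 3 of 6 subunits called, among 879 genes called, 413 of them higher.

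The number of genes detected was lower in most KO ICMs. Within both genotypes the summed FPKM of the 6 subunits tended to be higher in libraries with more genes detected, with exceptions. The sums of the 6 subunits ran from 26.9 to 156 FPKM in KO ICMs, with a median of 110 FPKM, and from 157 to 420 FPKM in WT ICMs, with a median of 234 FPKM. KO library 4, with 3642 genes at 1 FPKM or more, had the lowest value of 4 subunits, and KO library 1, with 3628, the lowest of the other 2. KO library 6, with 3883, went the other way, with a sum of 122.6 FPKM, above library 7 (110.4 FPKM, 5022 genes) and library 3 (69.2 FPKM, 4522 genes), and with the highest KO value of Mcm7. WT library 4, with 5638, had the highest WT value of 5 subunits, and WT library 1, with 5718, that of Mcm5. WT library 3 had both the fewest genes of the WT ICMs (5110) and their lowest sum (156.9 FPKM). KO library 5 had both the most genes of the KO ICMs (5136) and their highest sum (156.2 FPKM). Without KO libraries 1, 4 and 6, 3 of 6 subunits were called lower, where 405 of all 5549 genes tested were called, 328 of them lower. The members' median was then -1.03 against -0.34 for all genes. With the number of detected genes in the model, 0 of 6 were called (limma, 0 of 6 at an unadjusted p under 0.05), as were 0 of all 5443 genes (314 at an unadjusted p under 0.05). In that model the number of genes differs between the genotypes themselves, and its part in the result cannot be told apart from that of genotype.

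Markers of trophectoderm, the outer layer of the blastocyst, tended to have lower sums in KO ICMs, where much of the table was lower. Their sums overlapped between the genotypes and were not tested. The 8 of 11 markers in the table summed to between 7.91 and 57.1 FPKM in KO ICMs and between 43.5 and 836 FPKM in WT ICMs, with 1 marker under 1 FPKM in every KO library and 0 in every WT library. Epiblast markers (13 of 14 in the table) summed to between 149 and 542 FPKM in KO ICMs and between 253 and 563 FPKM in WT ICMs. Endoderm markers (11 of 15 in the table) summed to between 19.1 and 75.5 FPKM in KO ICMs and between 58.4 and 238 FPKM in WT ICMs. The part of these markers in the result was not tested.

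**Figure D2:**
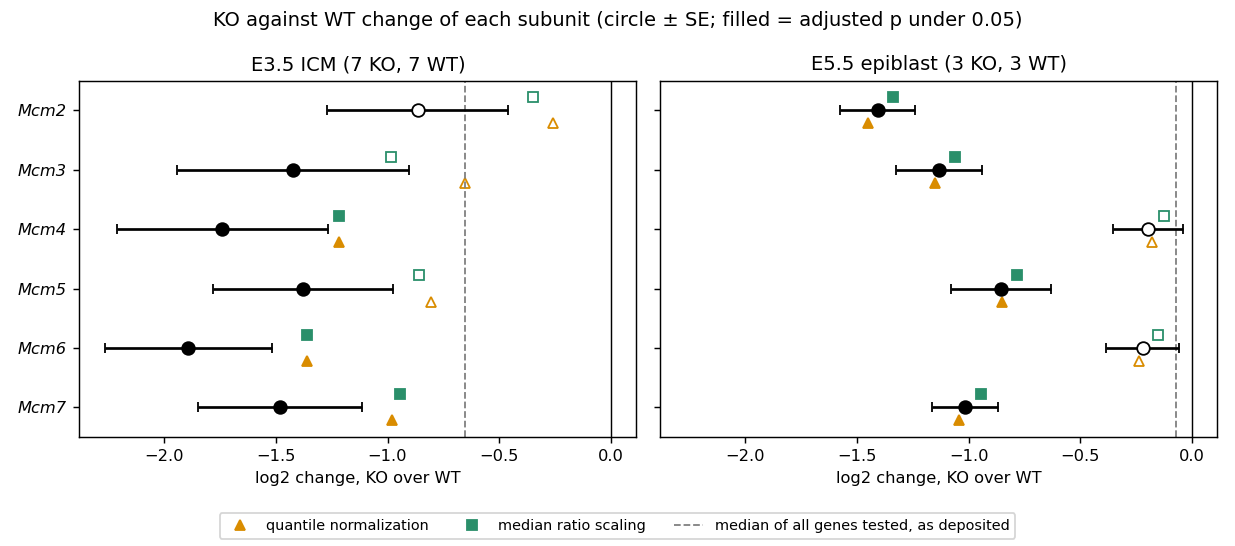
Log2 change of each subunit, KO over WT, at E3.5 (left) and E5.5 (right); circles with bars are the change ± SE on deposited values, triangles are under quantile normalization, squares under median ratio scaling, and filled symbols have an adjusted p under 0.05. The dashed line is the median of all genes tested, -0.65 at E3.5 and -0.07 at E5.5, and all symbols lie to the left of 0.

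In KO epiblasts at E5.5, 4 of the 6 subunits, Mcm2, Mcm3, Mcm5 and Mcm7, were lower than in WT epiblasts, where 34.1% of all 5956 genes tested were called, 18.5% lower and 15.6% higher. Mcm2 fell the most, by 1.41 on the log2 scale, while Mcm4 and Mcm6 did not pass. The groups of the 4 called subunits did not overlap, as was the case for 26.6% of all genes tested in the lower and 22.6% in the higher direction. The median log2 change was -0.94 over the 6 subunits and -0.07 over all genes.

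Mcm2 had 64.4, 84.7 and 78.9 FPKM in the KO epiblasts, against 218.8, 187.6 and 199.9 FPKM in the WT epiblasts. The 3 KO values lay together, well under the lowest WT value. Mcm2 was 2.66-fold lower in the mean, with a log2 change of -1.41 (SE 0.17, adjusted p = 0.000275 in limma).

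Mcm3 had 58.8, 80.6 and 92.0 FPKM in the KO epiblasts, against 178.5, 157.9 and 166.0 FPKM in the WT epiblasts. The highest KO value was still far from the lowest WT value, and Mcm3 fell by 1.13 on the log2 scale (SE 0.19, adjusted p = 0.00182 in limma). Mcm5 had 78.4, 147.9 and 98.9 FPKM in the KO epiblasts, against 212.4, 175.2 and 184.8 FPKM in the WT epiblasts. Its KO library 2 came close to the WT range, and Mcm5 fell by 0.85 on the log2 scale (SE 0.22, adjusted p = 0.0156 in limma). The Mcm5 call was lost without WT library 1 (adjusted p = 0.0747) and without WT library 3 (adjusted p = 0.0519), with the other subunits' calls kept.

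Mcm7 had 101.0, 94.5 and 95.3 FPKM in the KO epiblasts, against 201.4, 185.2 and 205.2 FPKM in the WT epiblasts. It had the tightest KO group of the 6 and fell by 1.02 on the log2 scale (SE 0.15, adjusted p = 0.000827 in limma). Its partners in the core of the ring stood otherwise. Mcm4 had 136.1, 144.3 and 166.3 FPKM in the KO epiblasts, against 167.8, 160.0 and 183.4 FPKM in the WT epiblasts. KO library 3 lay inside the WT range, and the log2 change was -0.20 (SE 0.16, adjusted p = 0.359 in limma). Mcm6 had 261.4, 187.0 and 217.2 FPKM in the KO epiblasts, against 264.0, 241.0 and 265.1 FPKM in the WT epiblasts. KO library 1 lay inside the WT range, and the log2 change was -0.22 (SE 0.16, adjusted p = 0.322 in limma). These p-values do not show that Mcm4 and Mcm6 were equal in the 2 genotypes, and the difference of their changes from those of the other subunits was not tested.

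Within each E5.5 library the subunits lay further apart in KO than in WT (values with no test). The highest subunit exceeded the lowest 4.45-, 2.32- and 2.75-fold in the KO epiblasts, against 1.57-, 1.53- and 1.60-fold in the WT epiblasts. Mcm4 and Mcm6 together made 56.8%, 44.8% and 51.2% of the summed FPKM of the 6 in the KO epiblasts, against 34.8%, 36.2% and 37.2% in the WT epiblasts. This pair holds the subunits not called in these same libraries, so its larger share in KO is not separate evidence. In ICMs the share of the pair ran from 30.7% to 50.3% in KO and from 40.8% to 59.7% in WT. Mcm6 was the highest subunit in all 6 E5.5 libraries. The sum of the 6 ran from 700 to 749 FPKM in KO epiblasts and from 1107 to 1243 FPKM in WT epiblasts. Shares do not change when each library is scaled by a single factor, but quantile normalization is not of that kind and can change them. They sum to 100%, so a larger share of Mcm4 and Mcm6 is also a smaller share of the other 4.

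**Figure D3:**
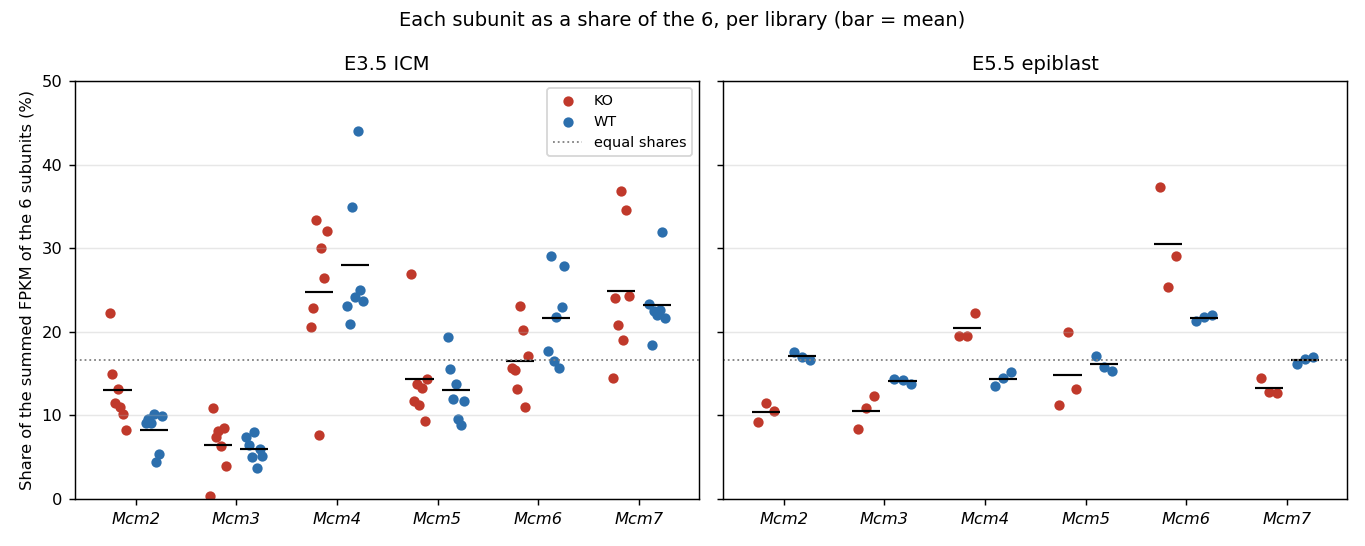
Share of each subunit in the summed FPKM of the 6, per library, in KO (red, left of each pair) and WT (blue), with bars at the mean and a dotted line at equal shares. At E5.5 Mcm6 ran from 25.3% to 37.3% in KO and from 21.24% to 22.01% in WT, and Mcm2 from 9.2% to 11.5% in KO and from 16.6% to 17.6% in WT.

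The E5.5 KO libraries are called epiblast here after their label, and had a lower sum of epiblast markers than the WT libraries. In both genotypes 10 of the 13 in the table were at 1 FPKM or more in every library. The median of each marker was lower in KO, except for Klf4, Esrrb and Tbx3. Otx2, for example, had a median of 6.85 FPKM in KO and 99.2 FPKM in WT. The 13 epiblast markers in the table summed to between 304 and 664 FPKM in KO and between 1558 and 1739 FPKM in WT. Pou5f1, a defining pluripotency factor, ran from 4.57 to 19.9 FPKM in KO and from 103 to 190 FPKM in WT. Utf1, another epiblast marker, ran from 207 to 390.5 FPKM in KO and from 688 to 821 FPKM in WT, and Dnmt3b from 28.9 to 102.4 FPKM in KO and from 315 to 395 FPKM in WT. Esrrb and Klf4 stood the other way, with Esrrb from 1.35 to 5.59 FPKM in KO and from 0 to 0.0739 FPKM in WT, and Klf4 from 0.28 to 1.29 FPKM in KO and from 0 to 0.209 FPKM in WT. The 8 trophectoderm markers summed to between 1153 and 2424 FPKM in KO and between 76.2 and 121 FPKM in WT, with 4 of the 8 under 1 FPKM in every WT library and 0 in every KO library. Gata3, which marks trophoblast, ran from 88.8 to 241 FPKM in KO and from 0.129 to 0.596 FPKM in WT, and Cdx2, another defining marker, from 0 to 3.21 FPKM in KO and at 0 in WT. Markers of extraembryonic ectoderm (5 of 8 in the table) summed to between 68.2 and 92.0 FPKM in KO and between 4.04 and 4.82 FPKM in WT. Esrrb is also on this list. Elf5, on this list and the trophectoderm list, ran from 30.1 to 33.4 FPKM in KO and from 0 to 0.0451 FPKM in WT. Endoderm markers were low in both, from 5.01 to 11.1 FPKM in KO and from 6.18 to 9.39 FPKM in WT. The part of these markers in the subunits' differences was not tested.

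Whether the KO effect itself differed between the stages was tested as E5.5 minus E3.5 over the 20 embryo libraries. None of the 6 subunits passed (0 called, 1 at an unadjusted p under 0.05 in limma), where 14% of all 5917 genes did. Of all genes, 10.6% were called with a positive difference and 3.38% with a negative one. The log2 differences were 1.67 for Mcm6 (SE 0.59, adjusted p = 0.0604) and 1.54 for Mcm4 (SE 0.77, adjusted p = 0.185), so their estimates pointed to a smaller drop at E5.5 than at E3.5. They were -0.54 for Mcm2, 0.29 for Mcm3, 0.52 for Mcm5 and 0.46 for Mcm7, each under its SE. The median over all genes was 0.56, and under quantile normalization and median ratio scaling Mcm3, Mcm5 and Mcm7 changed sign while Mcm2, Mcm4 and Mcm6 kept theirs. Mcm6 was called when WT ICM library 3 or 5 or KO ICM library 2, 5 or 7 was left out, with adjusted p from 0.0215 to 0.0496.

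Between E3.5 and E5.5 all 6 subunits rose in WT embryos, where 56.3% of 6022 genes tested were called, 37.3% higher and 18.9% lower, and 33.8% were higher in every E5.5 library. All 6 groups were apart, with every E5.5 epiblast above every ICM. ICMs were freed by immunosurgery from blastocysts, while E5.5 epiblasts were cut out by hand after growth in females. Stage therefore cannot be told apart from how embryos were grown and dissected. WT E5.5 epiblasts against WT ICMs averaged 10-fold more for Mcm3 (log2 change 3.43, SE 0.40) and 8.91-fold more for Mcm2 (3.28, SE 0.41). The ratio of means was 5.33 for Mcm5, 4.46 for Mcm6, 3.27 for Mcm7 and 2.45 for Mcm4, whose log2 change of 1.32 (SE 0.23) was the smallest of the 6. Adjusted p ran from 9.23e-06 for Mcm3 to 0.000307 for Mcm4 in limma. The 2 lowest subunits of the WT ICM thus rose the most, and Mcm4, which had the highest mean there, the least.

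The spread among the subunits was smaller at the later stage in WT. The highest subunit exceeded the lowest 1.53- to 1.60-fold in WT E5.5 epiblasts and 3.01- to 11.8-fold in WT ICMs. In WT ICMs the mean levels in descending order were 69.6 FPKM for Mcm4, 60.3 for Mcm7, 57.6 for Mcm6, 35.8 for Mcm5, 22.7 for Mcm2 and 16.7 for Mcm3. The SDs between libraries ran from 9.76 to 24.4 FPKM. As the subunits share libraries, these SDs are not the spread of the differences between subunits. The highest subunit was Mcm4, Mcm6 or Mcm7, depending on the library. Mcm3 was the lowest in every WT ICM but library 6, where Mcm2 was. In WT epiblasts they were 257 FPKM for Mcm6, 202 for Mcm2, 197 for Mcm7, 191 for Mcm5, 170 for Mcm4 and 167 for Mcm3, with SDs from 10.4 to 19.3 FPKM. There Mcm6 stood above the others in every library. Mcm2 exceeded Mcm5 in each library, while the place of Mcm7 beside them varied, as did the order of Mcm4 and Mcm3.

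**Figure D4:**
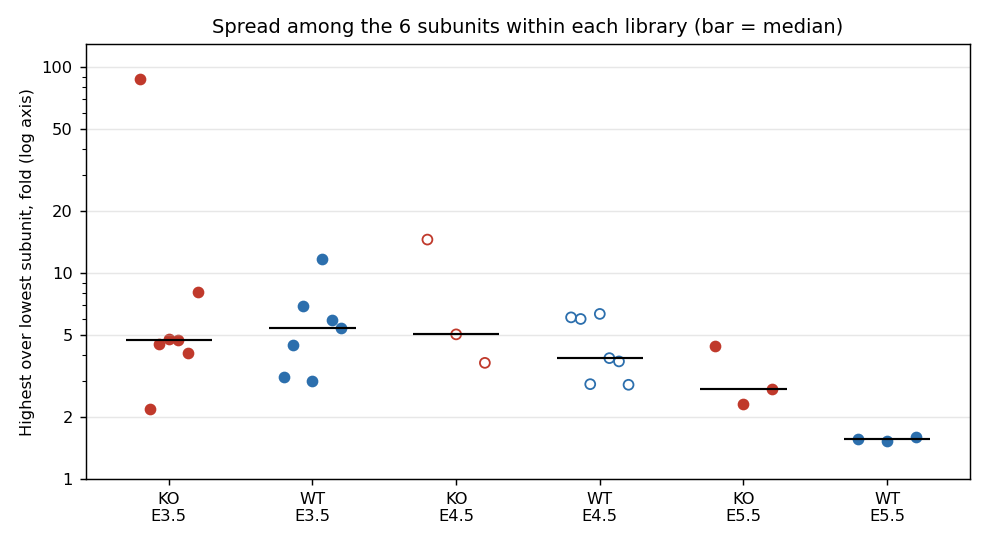
Highest over lowest subunit within each library (fold, log axis), KO (red) left of WT (blue) at each stage, with bars at the median; open points are single E4.5 epiblast cells. WT E5.5 epiblasts lie between 1.53 and 1.60, below all 3 KO E5.5 epiblasts (2.32 to 4.45) and all ICM libraries, and KO ICM library 1, where Mcm3 was 0.158 FPKM, lies at 87.8.

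In KO embryos all 6 subunits also rose between the stages, where 48.5% of 5604 genes tested were called, 39.8% higher and 8.67% lower. In every KO E5.5 library 37.8% of all genes were higher, and 7.01% lower, than in all KO ICMs. Every KO E5.5 epiblast was above every KO ICM for each subunit. The markers of these groups differed too. Trophectoderm markers summed to between 1153 and 2424 FPKM in KO E5.5 libraries, against 7.91 to 57.1 FPKM in KO ICMs. Epiblast markers summed to between 304 and 664 FPKM, against 149 to 542 FPKM, and endoderm markers to between 5.01 and 11.1 FPKM, against 19.1 to 75.5 FPKM. The part of these markers in the rise was not tested. The ratio of means was 14.4 for Mcm6 (log2 change 3.93, SE 0.46), 11.7 for Mcm3, 8.45 for Mcm5, 6.55 for Mcm2, 5.79 for Mcm4 and 4.19 for Mcm7 (2.23, SE 0.50). Adjusted p ran from 2.82e-05 for Mcm6 to 0.0040 for Mcm4 in limma. The median log2 change of the 6 was 2.97 in KO, against 1.08 over all genes, and in WT it was 2.41 against 0.43. With the number of detected genes in the model, 3 of 6 were called in KO, where 1103 of all 5604 genes tested were called, 619 of them higher. Mcm3 (adjusted p = 0.0909 in limma), Mcm4 (0.400) and Mcm7 (0.178) were not called there. Both stage comparisons use the same libraries as the KO against WT comparisons, so they are not separate evidence. In KO too, stage cannot be told apart from how embryos were grown and dissected.

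Single E4.5 cells gave no test, because the labels tie no cell to an embryo, and each group counts as 1 sample. In epiblast cells the 6 subunits summed to 191, 294 and 1016 FPKM in the 3 KO cells. In the 7 WT cells the lowest, median and highest sums were 389, 874 and 1229 FPKM. KO cell 3 had the highest KO value of all 6 subunits and lay within or above the WT range for each, while KO cells 1 and 2 lay under the whole WT range in sum. Mcm4 had 4.19, 20.7 and 187.5 FPKM in the KO cells, against a range of 26.4 to 146.1 FPKM and a median of 48.7 FPKM in WT cells. Mcm6 stood at 12.8, 68.1 and 91.7 FPKM in KO, against a range of 63.1 to 513.8 FPKM and a median of 170.7 FPKM in WT cells. For Mcm3 the KO cells had 61.3, 79.1 and 86.4 FPKM, with a WT range of 72.6 to 293 FPKM and a median of 222.2 FPKM in WT cells. All 3 KO cells were in the lower part of the WT range or under it for Mcm3 and Mcm6.

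For the other 3 subunits KO cell 3 again had the highest KO value, and KO cell 2 lay under the WT range for Mcm2 and Mcm5 but inside it for Mcm7. Mcm2 stood at 32.8, 29.7 and 193.4 FPKM in KO and between 41.1 and 149.1 FPKM in WT. For Mcm5 the KO cells had 37.7, 15.9 and 139.5 FPKM and the WT cells 61.3 to 213.5 FPKM. Mcm7 reached 42.5, 80.2 and 318.0 FPKM in KO and ran from 58.2 to 169.0 FPKM in WT, so KO cell 3 exceeded every WT cell for Mcm2 and Mcm7. Fewer genes reached 1 FPKM in the KO cells too, with 3026 to 3628 in KO and 3878 to 4682 in WT, and its part was not tested. Primitive endoderm cells, which go on to line the yolk sac, had sums of 335.5 and 335.1 FPKM in the 2 KO cells and 582.2 FPKM in the WT cell. Single subunits were near 0 in a KO endoderm cell, with Mcm4 at 0.0457 and Mcm3 at 0.604 FPKM in KO cell 1 and Mcm6 at 0.385 FPKM in KO cell 2. The WT endoderm cell had 46.5 FPKM of Mcm4, 51.8 FPKM of Mcm3 and 97.98 FPKM of Mcm6.

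Other genes of DNA replication were taken from 6 lists. In KO ICMs 15 of the 57 listed genes tested fell (26.3%) and 0 rose, where 24.9% of all genes tested were called lower, so the share of falls was near that of the whole table. Their median log2 change of -0.70 lay near the -0.65 of all genes. Among the loading factors 3 of 7 fell, namely Cdc6 (log2 change -2.35), Orc2 (-1.10) and Orc5 (-1.20). Cdc6, which helps load the helicase ring, had 8.34 ± 7.57 FPKM in KO ICMs and 33.8 ± 16.7 FPKM in WT ICMs (SD, n = 7 each). Among helicase partners 2 of 8 fell, Cdc45 (-1.27) and the GINS subunit Gins3 (-1.55), and Mcm8, of a separate helicase used in DNA repair, fell by 1.37. The polymerase and fork list had 3 of 21 lower, Pola2 (-2.25), Pold2 (-1.87) and the clamp loader subunit Rfc3 (-1.02).

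Pola2, a subunit of the polymerase that starts new strands, had 2.7 ± 2.12 FPKM in KO ICMs and 14.5 ± 2.87 FPKM in WT ICMs (SD, n = 7 each, adjusted p = 0.00219 in limma). Both large and small subunits of ribonucleotide reductase, Rrm1 (-1.59) and Rrm2 (-1.14), were the 2 of 7 nucleotide genes that fell. Of 12 G1 to S regulators 4 fell, the cyclins Ccnd3 (-2.71), Ccne1 (-1.77), Ccnd1 (-1.38) and Ccna2 (-1.17). Without KO ICM libraries 1, 4 and 6, Pola2 (adjusted p = 0.0167 in limma) was the only one of the 15 still called. Under quantile normalization 6 of the 15 were called, under median ratio scaling 5, and with a single library left out 8 (without KO library 6 or WT library 1, 4 or 6) to 15.

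In KO epiblasts at E5.5, 11 of 62 listed genes fell (17.7%) and 3 rose (4.84%), where 18.5% of all genes tested were called lower and 15.6% higher. The share of falls was near that of the whole table, with a median log2 change of -0.23 against -0.07 for all genes. No loading factor passed (0 of 7 at an adjusted p under 0.05), while Mcm8 (-0.69) and Mcm10 (-0.76), which helps start the fork, both fell. Of the helicase partners 1 of 9 fell, Timeless, a fork protection protein, by 1.36. It had 15.1 ± 0.467 FPKM in KO epiblasts and 40.4 ± 2.13 FPKM in WT epiblasts (SD, n = 3 each, adjusted p = 0.000561 in limma). The polymerase subunit Pold1 (-1.32) and the sliding clamp Pcna (-0.57) were among 4 of 21 fork genes that fell. The cyclin D partner Cdk4 (-1.61) and Ccnd1 (-1.86) were among 4 of 16 G1 to S regulators that fell, with Cdk4 at 382 ± 67.5 FPKM in KO epiblasts and 1165 ± 149 FPKM in WT epiblasts (SD, n = 3 each). The 3 that rose, named after their values were seen, were the primase subunit Prim2 (0.77), the retinoblastoma relative Rbl1 (0.89) and the cyclin-dependent kinase inhibitor Cdkn1b (0.83). Nucleotide genes had 0 of 7 called. Of the 7 named genes that fell at E5.5, 4 were still called without WT library 1.

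For the difference between the stages 3 of 61 listed genes passed (4.92%), against 14% of all genes tested. The difference was positive for Pola2 (1.80, adjusted p = 0.0481 in limma) and Rrm2 (1.35, adjusted p = 0.0478 in limma). Pola2 had a log2 change of -2.25 at E3.5 and -0.45 at E5.5, and Rrm2 of -1.14 and 0.21. For Cdk6 the difference was negative (-1.78, adjusted p = 0.0453 in limma), with a log2 change of -1.94 at E5.5. Cdk6 averaged only 0.484 FPKM in KO and 0.696 FPKM in WT ICMs, under the filter for a test at E3.5. All 3 calls were close to the threshold and were lost in 58 of 89 alternative fits of these genes, with adjusted p up to 0.233 for Pola2, 0.379 for Rrm2 and 0.231 for Cdk6. Between the stages 39 of 60 listed genes rose in WT (65%) and 3 fell (5%), where 37.3% of all genes tested were called higher and 18.9% lower, with a median log2 change of 0.97 against 0.43 for all genes. Those that rose included the nuclease Fen1 (3.33), Wdhd1 (2.7), Timeless (2.7), Pold2 (2.20), Orc1 (2.11), Cdk4 (1.96), Mcm8 (1.12), Orc3 (1.0), Mcm10 (0.74) and Ccnd1 (4.41). The 3 that fell were Tk1 (-0.73) and, named after their values were seen, Cdkn1a (-2.50) and Pold4 (-1.75). In KO embryos 31 of 60 rose (51.7%) and 0 fell, where 39.8% of all genes were called higher and 8.67% lower, with a median of 1.45 against 1.08, among them Ccnd1 (3.93), Fen1 (3.66), Samhd1 (3.51), Pola2 (3.18), Wdhd1 (2.82), E2f8 (2.65), Orc1 (2.64), Timeless (2.36), Rrm1 (2.09) and Orc3 (1.51). All 6 helicase subunits passed in both genotypes, and their medians of 2.41 in WT and 2.97 in KO lay above those of the listed genes.

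Across the 20 embryo libraries each subunit tracked the mean of the other 5, with Pearson's r of log2(FPKM + 1) from 0.900 for Mcm4 to 0.966 for Mcm6. After each group's mean was taken off, r ran from 0.740 for Mcm4 to 0.838 for Mcm6. The genes most like the mean of the 6, among 3792 candidates, were Klhl12 (r = 0.977), Ruvbl1 (0.975), Sf3b3 (0.964), Brms1 (0.962) and Iars (0.961). After group means were taken off they were Grb7 (0.924), Wars (0.913), Ruvbl1 (0.877), Klhdc3 (0.868) and Rnaseh2a (0.866). These are descriptions over 20 libraries that share stage, genotype and library quality, with the highest r picked from all candidates.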

How the data were processed

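RNA was measured in 33 libraries by SMART-seq2, per the labels' protocols. The authors deposited gene-level FPKM for the whole series, and the mm10 build, Bismark, HOMER 4.10.4, MACS2 2.2.6, Bowtie2 2.3.5, STAR 2.7.3 and Trim Galore 0.6.4 are named in the submitters' processing notes without a role. No source used here names the program that made the FPKM values. Of 7186 lines, 4 with 2 repeated names were left out. The depth is unknown, so no interval or floor was computed, and 971 positive values lay under 0.001 FPKM. FPKM are shares of a library, so a few abundant genes can shift all others.

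Groups came from the labels. Genes averaging 1 FPKM or more over the libraries compared were fitted with limma 3.58.1 (R 4.3.3, trend and robust empirical Bayes, two-sided) on log2(FPKM + 1), with Benjamini-Hochberg adjustment over all genes tested and a threshold of 0.05. The p-values measure the spread between single-embryo libraries. The fit was tested on simulated data. Members, pathway lists and markers were chosen with earlier results of these data known. Of the pathway lists, up to 4 genes per list with the smallest p among those called were named for KO against WT in the ICM and up to 2 for each other comparison, with exceptions stated beside them. A gene that this rule would also name is not reported here. Likeness was Pearson's r over genes averaging 5 FPKM or more. Gene identifiers were matched by symbol. Alternatives were other pseudocounts, filters and scalings, a replicate block and leaving out each library. Leaving out KO ICM libraries 1, 4 and 6, and adding the number of detected genes to the model, were chosen after seeing the data. Tables were handled with Python 3.11.15, pandas 2.3.3, numpy 2.4.6 and matplotlib 3.10.9. Chromatin and methylation files were not used.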

Additional observations from a re-analysis of the deposited data

Results flagged for a closer look

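Groups of 7 libraries were searched for a library far from the others, over 44 genes. These were the 6 subunits, the named replication genes and the genes most like the mean of the subunits. The groups were KO and WT ICMs and, for the subunits only, single WT E4.5 epiblast cells. Of 94 groups, 5 held such a library, and chance gives about 1 in 20. None of these 5 was a helicase subunit. KO ICM library 7 had 3.99 FPKM of Ccnd1, against 1.18 FPKM in the next KO library. WT ICM library 1 had 13.5 FPKM of Ccnd1, against 4.89 FPKM in the next, and 2.60 FPKM of Cdk6, against 0.838 FPKM in the next. WT ICM library 2 had 53.5 FPKM of Orc3, against 40.2 FPKM in the next. KO ICM library 1 had 6.97 FPKM of Wdhd1, against 2.99 FPKM in the next.

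The KO effect differed between the stages, E5.5 minus E3.5, for Pola2 (1.80), Rrm2 (1.35) and Cdk6 (-1.78), by the test of the difference itself in limma, with calls lost in 22 of 30 alternative fits for Pola2, 18 of 30 for Rrm2 and 18 of 29 for Cdk6. For the 6 helicase subunits it did not pass.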

How the results depend on the processing

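In KO against WT ICMs, 5 of 6 subunits were called and 1540 of all genes. Quantile normalization gave 3 and 708, median ratio scaling 3 and 879, leaving out KO ICM libraries 1, 4 and 6 gave 3 and 405, and the number of detected genes in the model gave 0 and 0. Leaving out each library gave 4 to 5 subunits and 946 to 1875 genes, with 946 without WT library 1 and 987 without WT library 4. Mcm3 lost its call without any 1 of 9 of the 14 libraries (adjusted p up to 0.105 in limma), with a pseudocount of 0.1 (0.0766), with no filter (0.061) and with the replicate block (0.0814), each of the last 3 leaving 4 of 6 subunits called. With detected genes in the model the log2 change turned to 0.00868 for Mcm3, 0.0218 for Orc5, 0.11 for Pold2, 0.16 for Ccnd3 and 0.00063 for Ccnd1. At E5.5 the 4 subunits called were 4 under each scaling, pseudocount and filter, and 3 to 4 with a library left out. All genes called were 2032 there, and 1205 to 2185 with a library left out, with 1205 without WT library 1 and 1293 without WT library 2.

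For the difference between the stages, 827 genes were called, against 520 with a pseudocount of 0.1, 446 with detected genes in the model, and 458 to 1034 with a library left out (458 without KO E5.5 library 1, 489 without WT E5.5 library 1 and 496 without WT E5.5 library 2). Subunits called were 0 to 1. Of 827 genes, 627 were higher and 200 lower, against 407 and 398 under quantile normalization and 334 and 261 under median ratio scaling. Mcm3 turned negative with a pseudocount of 5 (-0.18), quantile normalization (-0.74), median ratio scaling (-0.14), without KO ICM library 1 (-0.096; -0.096 to 0.52 over libraries left out), without the 3 KO ICM libraries (-0.27) and with detected genes (-0.94). Mcm5 turned negative at -0.26, -0.0113 and -0.33, and Mcm7 at -0.34, -0.093 and -0.30, under quantile normalization, median ratio scaling and detected genes in that order. Between the stages all 6 subunits were called in WT and KO under every alternative but detected genes in KO, with 3 of 6, and 1103 genes against 2717. There 2247 genes were higher and 1141 lower in WT, against 1655 and 1498 under quantile normalization and 1627 and 1452 under median ratio scaling. In KO 2231 were higher and 486 lower, against 1009 and 922, and 1097 and 762. Leaving out each library gave 6 subunits throughout, with 2670 to 3435 genes in WT and 1845 to 2827 in KO. The cause of these shifts was not tested.

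Libraries share replicate numbers across groups. After group means were taken off, same-numbered libraries correlated between -0.133 and 0.155 in the ICM and between -0.0224 and 0.118 at E5.5. These correlations are low, but with so few libraries they cannot exclude that the numbers pair libraries. The main fits used no pairing. With the replicate block, the ICM comparison called 4 subunits and 1221 genes, the E5.5 comparison 4 and 1950, the difference 0 and 713, and the stage comparisons 6 and 2968 in WT and 6 and 2439 in KO. A library correlated best with its own number in 1 of 7 ICM pairs and 2 of 3 E5.5 pairs. Depth limits cannot be given from FPKM.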
